A study of Mus musculus with 18 samples.

Results

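On mouse chromosome 12, 50 of the 560 KZFP/rGUs listed with mm9 coordinates in the study lay in 2 neighbouring clusters, 26 in cluster 3 and 24 in cluster 4. A KZFP/rGU is the stretch of a KRAB zinc finger protein gene, or of a related genetic unit such as a pseudogene or a non-annotated copy, that holds the array of zinc fingers. The 50 units were taken by position alone, as the listed elements inside the bounds given for the clusters, chromosome 12 from 17909615 to 21023139 (3.11 Mb) and from 21677186 to 25022939 (3.35 Mb), and were numbered in order along each cluster as 3.1 to 3.26 and 4.1 to 4.24. The study profiled KAP1 and SETDB1 in Hepa 1.6 cells, a WT hepatoma line derived from the BW7756 tumour of a C57L mouse, and H3K9me3 and H3K27ac in mouse embryonic fibroblasts (MEF) of C57BL/6 background (C57BL/6J in the methods). The MEFs were either Kap1 KO or WT, the latter Kap1 loxP/loxP. The methods describe the Kap1 KO MEFs used for RNA-seq as a single clone after long culture, and do not say so of those used for ChIP-seq. With 1 library per mark and condition there was 1 peak list each, so that no spread between libraries can be given, the depth is unknown, and a difference between both MEF lists cannot be told apart from a difference between 2 cultures. KAP1 binding was thus seen in hepatoma cells and the histone marks in fibroblasts, and KAP1 in MEFs was not analysed here.

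KRAB zinc finger proteins bind DNA through an array of C2H2 zinc fingers and, through their KRAB domain, bring in the corepressor KAP1 (also TRIM28). KAP1 acts as a scaffold for SETDB1, the enzyme that writes H3K9me3, a mark of silent chromatin, whereas H3K27ac marks active promoters and enhancers. In a typical gene of this family the promoter and the exon for the KRAB domain lie several kilobases before a last exon that codes for all the fingers, and paralogs arise by duplication of whole stretches of chromosome, so that flanking sequence is copied with the genes.

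Trim28, the gene deleted in the Kap1 KO MEFs, had H3K27ac at a start in both lists, which says nothing about the deletion. The MEF lists were checked on marker genes. H3K27ac lay within 1 kb of a transcript start of 10 of 10 fibroblast markers in both genotypes, such as Col1a1, a fibrillar collagen, and of 0 of 4 hepatocyte markers. Among 4 stem cell markers it was at 0 in WT and 1 in Kap1 KO cells (Dppa5a), and Pou5f1 and Nanog had none. At Cd68, 1 of 2 blood markers with an annotated start, and Pecam1, 1 of 2 endothelial markers, both genotypes had a peak, and at Krt8, 1 of 3 epithelial markers, WT cells had one.

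The word of 14 bases found in most of the 560 elements, GGAGAGAAACCCTA, codes for part of the linker between zinc fingers. It is shown here because it was the sequence most widely shared by the arrays. It occurs at the start and at the end of the following stretches of 98 bases, on the coding strand, from unit 3.25 (the array of Zfp125, chr12:20906343-20906440 of mm9, minus strand), unit 4.12 (chr12:23131159-23131256, plus strand) and unit 4.23 (chr12:24900455-24900552, minus strand). The capitals mark the word.
unit 3.25: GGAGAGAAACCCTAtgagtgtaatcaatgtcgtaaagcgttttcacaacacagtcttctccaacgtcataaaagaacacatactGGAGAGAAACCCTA
unit 4.12: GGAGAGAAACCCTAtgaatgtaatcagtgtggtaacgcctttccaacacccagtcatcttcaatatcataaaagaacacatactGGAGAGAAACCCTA
unit 4.23: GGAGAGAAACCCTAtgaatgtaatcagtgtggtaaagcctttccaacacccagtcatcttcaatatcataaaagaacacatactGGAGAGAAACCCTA

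The word was present, on either strand, in 49 of the 50 units, or 98% (exact Clopper-Pearson 95% confidence interval 89.4% to 99.9%), against 55.2% of all 560 elements and 0.00853% of the 2 kb tiles of chromosome 12 that hold no element. Because it was picked for being shared by the elements, this is a description of the arrays and not a test. It occurred a median of 10 times in a unit and up to 19 times (unit 3.18), against a median of 1 over all 560 elements. Unit 3.24, of 140 bp, was the unit without it. Here, elements under 500 kb from the next one were joined, and a run of 8 or more was called a cluster, so that clusters 3 and 4 were among 16.

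The units had a median length of 1630 bp, from 140 to 2810 bp, and between 1 and 22 matches to the C2H2 pattern in their best reading frame, with a median of 11. The strand with more matches was taken as the coding strand. In cluster 3, 24 of 26 units were on the plus strand, with units 3.16 and 3.25 as the exceptions. In cluster 4 the strands came in blocks, minus for units 4.1 to 4.8, plus for 4.9 to 4.15 and minus for 4.16 to 4.24. Of the 50 units, 4 overlapped an exon of the GENCODE annotation of mm9: 3.5 in the protein-coding gene 5730507C01Rik, 3.25 in the protein-coding gene Zfp125, and 4.14 and 4.21 in the pseudogenes Gm17381 and Gm17563. Another 11 lay in an intron only, among them 3.26 in Asap2, an ADP-ribosylation factor GTPase-activating protein gene that is no KZFP, 4.11 in 2410018L13Rik and 4.22 in 9030624G23Rik.

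Many units were near copies of each other. Units 4.5 and 4.7 (1414 bp) were identical over their whole length, as were 4.6 and 4.18 (591 bp) and 4.8 and 4.16 (591 bp). Unit 3.22 differed from unit 4.1, in the other cluster, by 2 edits over 1214 bp (99.84% identity). Units 4.14 and 4.21 were 99.73% identical and units 4.12 and 4.23 99.25%, and the closest pair within cluster 3 reached 95.55%. In all, 25 units had another one at 90% identity or more. A median of 63.5% of the windows of 100 bases in cluster 3 units and 22.7% in cluster 4 units occurred once in mm9, against 96.2% over the 555 elements long enough to be measured. For units 4.5, 4.6, 4.7, 4.8, 4.16 and 4.18 this share was 0.0%, and for units 3.14 and 3.25 it was 100.0%. Of the bases of the clusters, 1.61% in cluster 3 and 7.47% in cluster 4 are gaps of the assembly, with 1 and 5 gaps of 1 kb or more. A read from a window that occurs more than once cannot be assigned to 1 copy, so the lack of a peak over such a unit need not mean that the mark is absent there. Where a peak is called over such windows, it may belong to another copy.

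**Figure D1:**
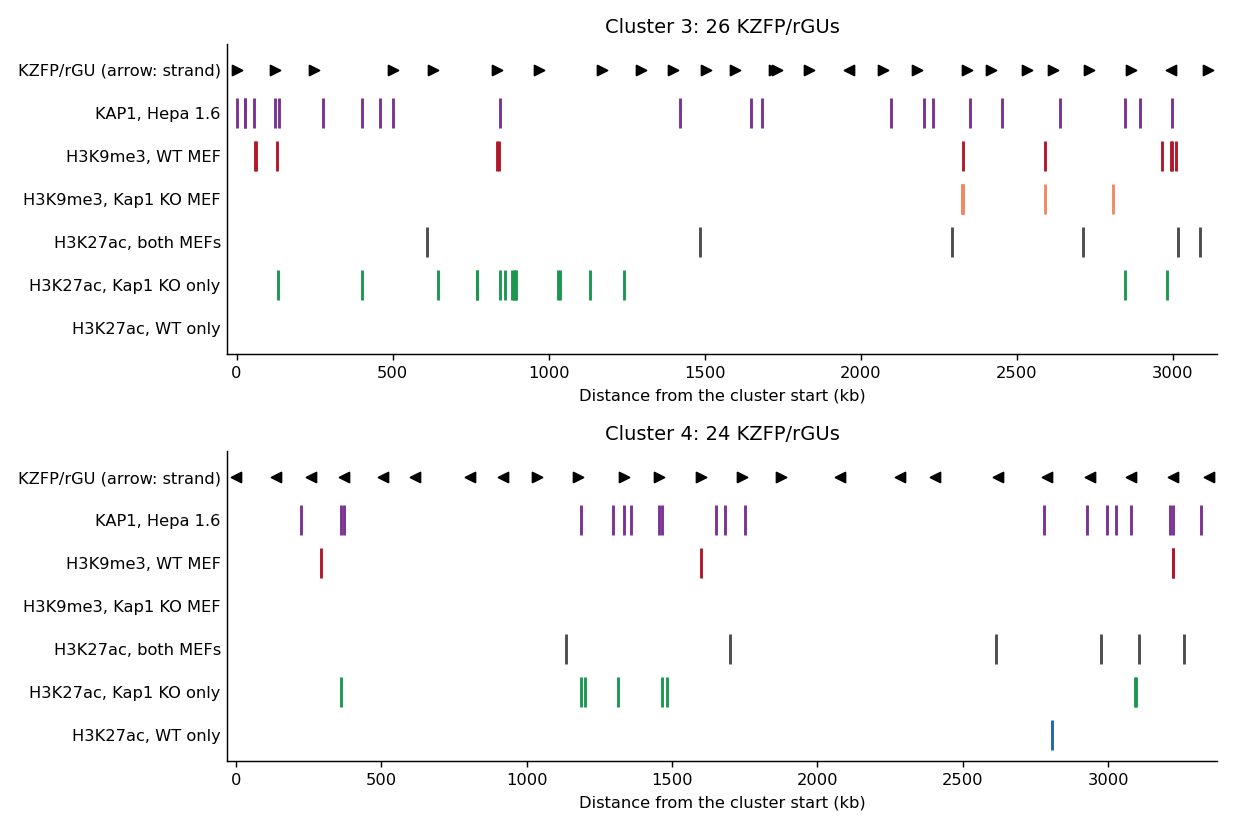
Units and peaks along clusters 3 and 4, in kb from the start of each cluster. Arrowheads are the 26 and 24 units with their strand, and each bar is the middle of 1 peak; the Kap1 KO only H3K27ac peaks of cluster 3 crowd into its first part, and cluster 4 has no H3K9me3 peak of Kap1 KO cells.

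Most units, like most elements of the whole list, had no peak over them. A KAP1 peak of Hepa 1.6 cells lay over 9 of the 50 units, or 18% (8.58% to 31.4%), where 22.5% of all elements had one. The intervals here and further on cover counting error only. The units were 3.1 (score 214), 3.2 (185), 3.4 (305) and 3.25 (177) in cluster 3, and 4.4 (163), 4.11 (130), 4.12 (164), 4.22 (133) and 4.23 (392) in cluster 4. The score is the one that the authors deposited with each peak. Entries of the SETDB1 list, which are all entries of the KAP1 list as well, lay over 3.2, 4.4, 4.11 and 4.23, that is 4 units or 8.0% (2.22% to 19.2%), against 11.1% of all elements. Both shares held the background within their interval.

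The MEF lists hold peaks from a score of about 50, below the 80 that the methods name, and with a score of at least 80 H3K9me3 of WT MEFs was over 2 units and under no base of cluster 4. With all peaks it was found over 4 units, 3.6 (97.60), 3.25 (120.31), 4.13 (56.18) and 4.23 (73.16). This was 8.0% (2.22% to 19.2%) of the units, where 22.1% of all elements had such a peak, 18.5% (14.5% to 23.2%) of the elements in the 14 other clusters and 32.6% (25.8% to 39.9%) of those outside clusters. The interval of the units lay below the share over all elements but held the 18.5% of the other clusters. Units of 1 cluster also share their sequence and are not independent. Units 3.25 and 4.23 had both KAP1 in Hepa 1.6 cells and H3K9me3 in MEFs. In Kap1 KO MEFs, H3K9me3 was over 0 units, which allows a share of up to 7.11%, against 0.179% of all elements. H3K27ac was over 0 units in both genotypes, against 0.357% of all elements in WT and 0.536% in Kap1 KO cells. In all, 39 units or 78% (64% to 88.5%) had no peak of any list over them, against 68.8% of all elements, a share within that interval.

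Zfp125, the annotated gene of unit 3.25, had all of its windows unique in mm9, as 1 other unit (3.14) did. Its array had 1 KAP1 peak of score 177 and H3K9me3 peaks of scores 120.31 and 95.16 in WT MEFs, and 0 in Kap1 KO MEFs. The H3K27ac peak 19971 bp before it, at the start of 3110053B16Rik, scored 3100.00 in WT and 2359.25 in Kap1 KO MEFs. A KAP1 and H3K9me3 peak over the zinc finger exon thus stood beside the highest H3K27ac peak of either cluster, and the unit had the highest MEF rank of the 50, as given further on.

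Over the clusters as a whole, H3K9me3 was sparse. In cluster 3, 11 peaks of WT MEFs covered 0.418% of the bases and 6 of Kap1 KO MEFs 0.231%. In cluster 4, 4 peaks of WT MEFs covered 0.0493% and 0 peaks of Kap1 KO MEFs were called. Over the 14 other clusters together the values were 2.29% and 0.0867%, and over the genome 0.346% and 0.171%. The pooled WT value was mostly from a chromosome 4 cluster (12.4%) and a chromosome 10 cluster (8.33%), and the next highest had 1.58%. By the WT share, clusters 3 and 4 ranked 9 and 13 of 16, and cluster 3 lay above the genome. A single region of cluster 3 made up most of the signal. A WT peak of 8132 bp and score 1305.56 (chr12:20232544-20240675) lay between units 3.18 and 3.19, with its middle 12721 bp before the 5′ edge of 3.19. In Kap1 KO cells 4 peaks of scores 110.42, 71.0, 57.14 and 294.24 lay within it, and 93.5% of its windows were unique. With this block, 2 of the 15 WT peaks of both clusters overlapped a Kap1 KO peak, where 3.2% of all WT peaks of the genome did. The next highest WT scores in cluster 3 were 124.26, at 58555 bp past unit 3.1, and the 120.31 over unit 3.25. In cluster 4 they were 73.16 and 60.40 over unit 4.23 and 57.64 at 33407 bp before unit 4.3.

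KAP1 was found at 23 places in cluster 3 and 20 in cluster 4, or 6.66 peaks per Mb in both, against 11.2 per Mb in the 14 other clusters and 5.03 per Mb in the genome. Of these 43 peaks, 9 or 20.9% (10.0% to 36%) were over a unit, whereas 40.0% (32.8% to 47.6%) of the 180 KAP1 peaks in the other clusters were over an element. These 2 shares are not alike, because clusters 3 and 4 hold 50 units in 6.46 Mb and the others 329 elements in 16.1 Mb. Counted by unit, KAP1 lay over 18% of the 50 and over 20.4% (16.1% to 25.1%) of the 329. The SETDB1 list held 8 of the 43, or 18.6% (8.39% to 33.4%), close to the 22.1% of all KAP1 peaks and below the 41.7% (34.4% to 49.2%) of the other clusters. In cluster 3 the highest scores were not over units. They were 409 at 26203 bp past unit 3.24, 359 at 9170 bp past unit 3.2 and 335 at 9085 bp past unit 3.6. In cluster 4 the highest were 481 at 25327 bp past unit 4.24, 392 over unit 4.23 and 381 at 9139 bp past unit 4.12. The highest SETDB1 entries were 409, 298 and 185 in cluster 3 and 392, 163 and 130 in cluster 4. Distances are from the middle of the peak to the edge of the unit, along its coding strand. Of the 43 peaks, 8 had under 10% of their windows unique in mm9, so these may belong to other copies.

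Between the units, more H3K27ac peaks were called in Kap1 KO than in WT MEFs. Cluster 3 had 6 H3K27ac peaks in WT and 23 in Kap1 KO MEFs, and cluster 4 had 7 and 14. A Kap1 KO only peak shares no base with a WT peak. There were 17 of them in cluster 3, or 73.9% (51.6% to 89.8%) of its Kap1 KO peaks, and 8 in cluster 4, or 57.1% (28.9% to 82.3%), against 22.8% of all H3K27ac peaks of Kap1 KO MEFs and 26.6% (21.8% to 31.9%) in the 14 other clusters. WT only peaks numbered 0 in cluster 3 and 1 in cluster 4, a peak of score 52.44 close to the lowest of the list, where 22.8% of all WT peaks were WT only. By called peaks, both clusters were poor in H3K27ac in WT cells, with 2.01 per Mb against 15.3 in the other clusters and 13.7 in the genome. In Kap1 KO cells the values were 5.73, 19.4 and 13.7 per Mb. The limit set by repeated sequence holds here too. The share of Kap1 KO only peaks was thus high beside few peaks shared by both genotypes, while their number per Mb was 3.87 in clusters 3 and 4 and 5.15 in the 14 other clusters.

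**Figure D2:**
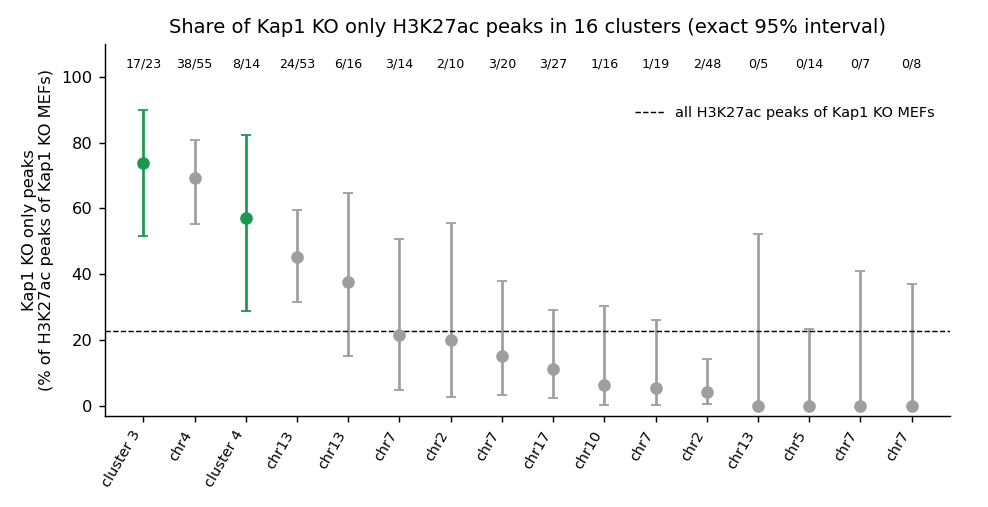
Kap1 KO only H3K27ac peaks as a percent of the H3K27ac peaks of Kap1 KO MEFs in each of the 16 clusters, with exact 95% intervals and the counts above; the dashed line is the 22.8% of the whole list. Clusters 3 and 4 (green) rank 1 and 3 of 16 at 73.9% and 57.1%, with a chromosome 4 cluster (38 of 55 peaks) between them, and the 3 intervals overlap.

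The gain was uneven along the clusters. The 25 Kap1 KO only peaks fell in 12 of the 48 spaces between neighbouring units, or 25% (13.6% to 39.6%), against 18.4% of the 315 spaces in the other clusters. The 2 shares are not alike, because the 48 spaces lie in 6.46 Mb and the 315 in 16.1 Mb. Spaces in clusters 3 and 4 are thus longer, and a longer space holds a peak more readily. The space between units 3.6 and 3.7, of 133186 bp, held 6, and 3 each lay between 3.5 and 3.6, between 3.7 and 3.8 and between 4.10 and 4.11. The highest score, 1217.61 over 3779 bp (chr12:18798940-18802718), was 55161 bp past unit 3.6. The next were 792.84 at 61800 bp before unit 3.6 and 627.56 at 8929 bp past it. In cluster 4 the highest were 513.80, at 19450 bp before unit 4.11, then 216.19 at 14560 bp before 4.22 and 181.68 at 8827 bp past 4.4. Without the first of these, which lies at a transcript start, the next was 160.34 at 8903 bp past 4.12. Just 1 of the 25 was within 1 kb of an annotated transcript start, as were 7.8% of the Kap1 KO only peaks of the genome, while 8 of the 12 peaks in both genotypes were, against 42.3% of all such peaks. A KAP1 peak of Hepa 1.6 cells lay over 7 of the 25, where 6.36% of all Kap1 KO only peaks had one. From the side of KAP1, 7 of its 43 peaks in the clusters carried Kap1 KO only H3K27ac, against 4.06% of all KAP1 peaks. By either count, 5 of the 7 were copies of 1 repeated site and 2 of another, both described below. They are thus not independent of each other. H3K9me3 of WT MEFs was over 0 of the 25. Its 15 peaks covered only 0.227% of the bases of both clusters, and the same share over all Kap1 KO only peaks was not counted. This 0 is thus no result about the gained sites.

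**Figure D3:**
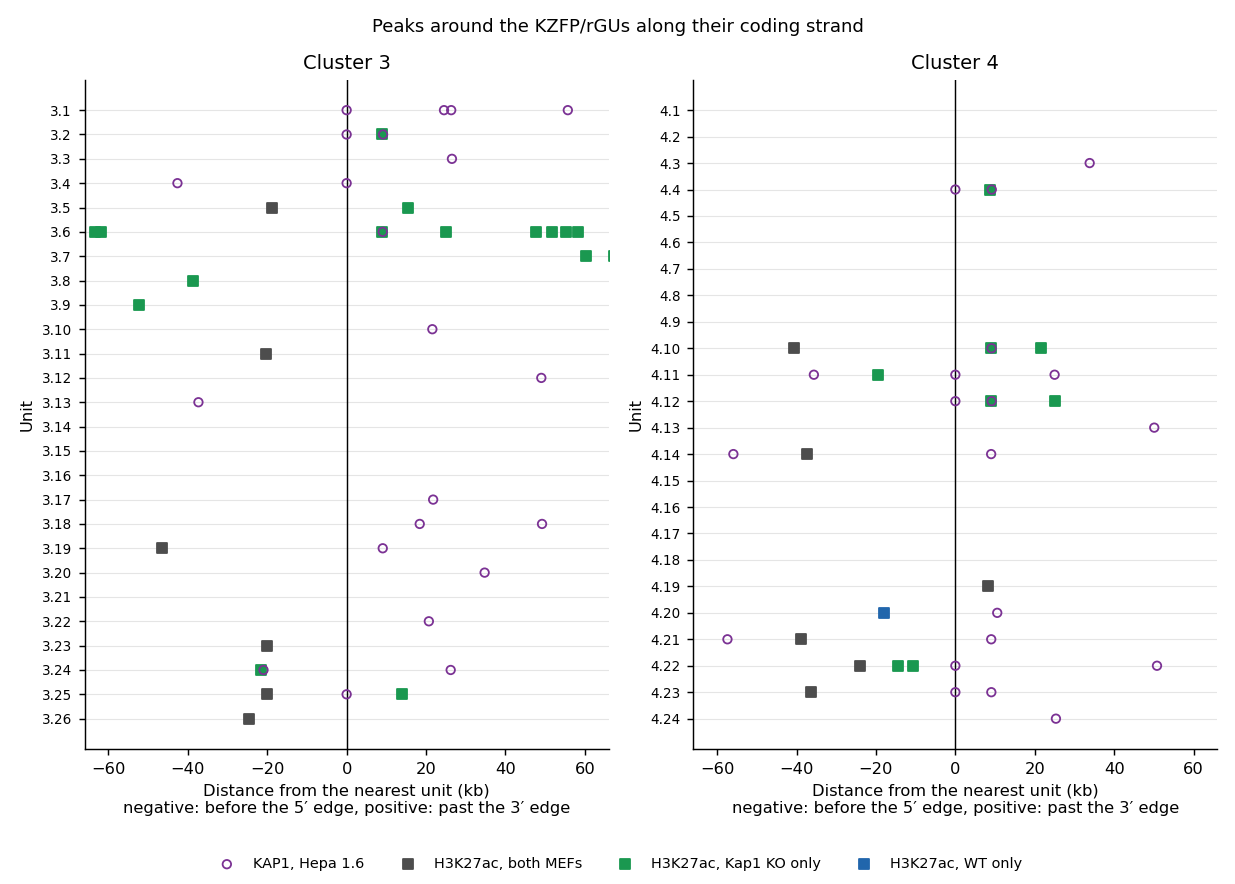
Peaks around each of the 50 units, placed at the nearest unit along its coding strand in kb (0 is the unit itself); open circles are KAP1 peaks in Hepa 1.6 cells and squares H3K27ac peaks of MEFs in both genotypes (black), Kap1 KO only (green) or WT only (blue). KAP1 lines up about 9 kb past the 3′ edge in both clusters, and H3K27ac shared by both genotypes lies mostly 18 to 47 kb before the 5′ edge; peaks beyond 66 kb are not drawn.

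When the sequences under all peaks of the clusters were aligned with each other, most fell into a few groups of homologous sites. A group joins peaks that share an alignment of at least 300 bases at 85% identity or more. Of the 43 KAP1 peaks, 39 belonged to a group with other places in the clusters, and of the 25 Kap1 KO only H3K27ac peaks, 18 did. The groups and the distances below were chosen after the positions were seen, and transposable elements were not annotated here.

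The first group held the H3K27ac peaks of WT cells. It joined 11 of the 12 peaks shared by both genotypes, the WT only peak and 1 Kap1 KO only peak, the one at the start of 2410018L13Rik. The narrowest of the shared peaks (936 bp, at the start of Gm5784) had 37 copies in mm9, of at least 80% of its length at 85% identity or more, all on chromosome 12. Of these, 36 lay inside the clusters (19 and 17), and 34 were before the 5′ edge of their nearest unit, by 9542 to 47174 bp with a median of 25242 bp, 1 copy for each of 34 units. WT MEFs had H3K27ac over 10 of the 36 copies and Kap1 KO MEFs over 11, so that 25 copies had no such peak. The stretch below is the middle of the copy before unit 4.11 (chr12:22990321-22990404), marked in Kap1 KO cells only, followed by the copies before unit 4.13 (chr12:23254863-23254946), without a peak, and before units 4.14 (chr12:23377173-23377257) and 4.22 (chr12:24782413-24782496, minus strand), marked in both genotypes. Capitals mark bases that differ from, or are added to, the first line, and a missing base, as in the line of unit 4.14, leaves no mark.
unit 4.11: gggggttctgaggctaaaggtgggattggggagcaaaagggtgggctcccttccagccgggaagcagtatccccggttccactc
unit 4.13: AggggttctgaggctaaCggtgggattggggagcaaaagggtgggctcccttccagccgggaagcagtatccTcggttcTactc
unit 4.14: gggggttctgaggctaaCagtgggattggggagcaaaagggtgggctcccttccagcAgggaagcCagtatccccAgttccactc
unit 4.22: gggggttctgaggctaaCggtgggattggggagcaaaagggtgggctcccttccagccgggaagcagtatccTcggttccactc

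The marked and the unmarked copies differed from the first line at 2 to 5 places in this stretch. Scores moved in both directions between the genotypes at the 11 shared peaks of this group. They were higher in Kap1 KO cells before unit 3.5, at the start of 5730507C01Rik (118.71 in WT and 953.56 in Kap1 KO), before 4.10 (72.47 and 559.48), before 4.22, at the start of 9030624G23Rik (371.80 and 1030.40), before 4.23, at Gm9312 (577.84 and 1124.57), before 3.19 (251.34 and 465.61) and before 3.11, at Gm5784 (50.03 and 93.58). They were lower before 3.23 (908.35 and 618.26), 3.25 (3100.00 and 2359.25), 3.26, at the start of Asap2 (1310.02 and 420.59), 4.14, at Gm17391 (585.31 and 201.85), and 4.21, at Gm17330 (1100.52 and 560.68). Scores of separate libraries were not scaled to each other, and with 1 library per genotype these pairs were not tested.

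Units with an H3K27ac peak upstream in WT MEFs mostly ranked higher in expression there than the units without one. Expression was used only as the rank of each unit among the 560 elements, from the mean of 2 WT MEF columns of the study's table, with 1 as the highest. A WT H3K27ac peak lay within 50 kb before the 5′ edge, with no other unit in between, for 13 units. Their ranks ran from 87 to 401 with a median of 208, and 8 of the 13 were at rank 280 or higher up. The ranks of the other 37 ran from 337 to 474 with a median of 439. None of the 37 was at rank 280 or higher up (exact interval up to 9.49%), and 17 of them were listed at 0 in MEFs, as were 0 of the 13. The 2 sets overlapped between ranks 337 and 401. Among the elements with a coding strand outside the 2 clusters, 71.2% (66.2% to 75.9%) of the 354 with such a peak and 14% (8.63% to 21%) of the 136 without one reached rank 280, so the same order held there. The share of unique windows, which bears on how many reads can be counted, had medians of 49.2% and 41.4% in the 13 and the 37 units. The lowest share among the 13 was 11.3%, whereas all 6 units at 0.0% were among the 37 and were listed at 0 in MEFs. The 13 units also ranked higher by the median in mESC (108 against 217) and in liver (345 against 420). Counted by copies of the upstream sequence, the 10 with WT H3K27ac belonged to units of ranks 127 to 401 and the 24 others before a unit to ranks 346 to 474. In mESC, 10 of these 10 and 13 of these 24 were at rank 280 or higher up. Units 3.1, 3.25 and 4.20, with an upstream peak in WT cells, had no copy under it by these limits.

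**Figure D4:**
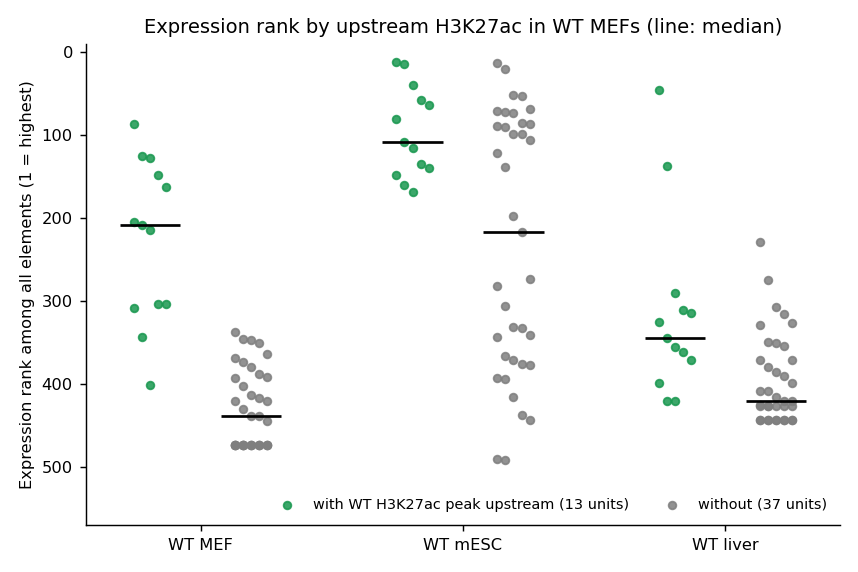
Expression ranks of the 50 units among the 560 elements (1 is the highest, at the top) in WT MEFs, mESC and liver, split by a WT MEF H3K27ac peak up to 50 kb upstream; each point is a unit and the line the median. In MEFs the 13 units with the peak (green) lie at 87 to 401 and the 37 without it (grey) at 337 to 474, and the medians of the 13 are also higher up in mESC (108 against 217) and liver (345 against 420).

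By listed rank, the units were low in MEFs and high in embryonic stem cells, a contrast that repeated sequence may affect, as given below. In WT MEFs 3 of 50 were among the 140 elements of highest rank, or 6.0% (1.25% to 16.5%), against 25% by construction. These were 3.25 (rank 87), 3.1 (125) and 4.21 (127), followed by 4.14 (148), 3.26 (163) and 4.23 (205). A further 17 units, or 34% (21.2% to 48.8%), were listed at 0, against 15.5% of all elements. In WT mESC 27 of 50 were among the highest 140, or 54.0% (39.3% to 68.2%), with 4.14 at rank 12, 3.18 at 13, 4.21 at 14 and 3.12 at 20, and 0 units were listed at 0, against 0.714% of all elements. In WT liver 2 were among them, 3.1 (rank 45) and 3.25 (137), and 10 were listed at 0, or 20.0% (10.0% to 33.7%), against 20.9%. Units 3.12 and 3.18, near the top in mESC, were among those listed at 0 in MEFs and had no H3K27ac peak upstream in either MEF genotype. The study discarded reads without a unique place, so the level of a unit with few unique windows may be a lower estimate. Units 4.5, 4.6, 4.7, 4.8, 4.16 and 4.18, with 0.0% unique windows of 100 bases, were listed at 0 in MEFs and liver. In mESC none of them was at 0, and their ranks ran from 341 (unit 4.7) to 394 (unit 4.6). Unit 4.5, identical to 4.7, had rank 343. Their mESC levels thus do not follow from uniquely placed windows of 100 bases, and the reason was not tested. Units 3.14 and 3.25, with 100.0% unique windows, had ranks 402 and 87 in MEFs and 416 and 160 in mESC. Whether repeated sequence was counted alike in the MEF, liver and mESC columns was not tested. The contrast between MEFs and mESC, in ranks and in units listed at 0, thus cannot be read as a difference between cell types alone.

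Another group of sites lay past the 3′ edge of the units. A KAP1 peak of Hepa 1.6 cells had its middle 8.5 to 9.5 kb past the 3′ edge of 10 units, or 20.0% (10.0% to 33.7%), against 2.96% of the 540 elements with a coding strand and 1.22% of the 490 outside the 2 clusters. The units were 3.2, 3.6 and 3.19 in cluster 3 and 4.1, 4.4, 4.10, 4.12, 4.14, 4.21 and 4.23 in cluster 4, on both strands, and the distances ran from 9014 to 9170 bp, a range narrower than any of these peaks. Unit 4.20 had the peak at 10545 bp. The site under the peak past unit 4.12 (704 bp) had 11 copies in mm9 of at least 80% of its length at 90% identity or more. All 11 were past these 11 units, the one of unit 4.1 just outside the bounds of cluster 4, and all 11 lay under a KAP1 peak. At no less than 95.2% identity the copies are alike enough that reads may pass from one to another, and between 19.4% and 95.2% of their windows were unique. The stretch below is 84 bases from the middle of the site of unit 4.12 (chr12:23142878-23142961), with its counterparts, all on the coding strand of their unit. Capitals mark bases that differ from, or are added to, the first line, while a missing base leaves no mark.
unit 4.12: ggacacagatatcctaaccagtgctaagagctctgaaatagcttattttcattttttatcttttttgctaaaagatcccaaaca
unit 4.4: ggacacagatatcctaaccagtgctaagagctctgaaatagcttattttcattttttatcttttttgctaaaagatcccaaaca
unit 4.23: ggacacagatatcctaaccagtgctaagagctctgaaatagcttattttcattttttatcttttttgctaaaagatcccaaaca
unit 3.2: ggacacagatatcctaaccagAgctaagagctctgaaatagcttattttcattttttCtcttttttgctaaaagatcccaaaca
unit 3.6: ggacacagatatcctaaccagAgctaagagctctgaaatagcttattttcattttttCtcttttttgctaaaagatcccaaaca
unit 4.10: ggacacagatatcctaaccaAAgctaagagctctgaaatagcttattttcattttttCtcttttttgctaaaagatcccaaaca
unit 4.1: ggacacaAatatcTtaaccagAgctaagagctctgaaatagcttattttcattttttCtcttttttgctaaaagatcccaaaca
unit 3.19: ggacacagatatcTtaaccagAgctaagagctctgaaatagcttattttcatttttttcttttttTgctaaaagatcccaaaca
unit 4.14: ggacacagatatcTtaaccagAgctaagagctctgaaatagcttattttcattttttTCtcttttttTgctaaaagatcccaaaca
unit 4.21: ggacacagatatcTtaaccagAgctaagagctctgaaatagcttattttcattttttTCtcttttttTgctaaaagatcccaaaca
unit 4.20: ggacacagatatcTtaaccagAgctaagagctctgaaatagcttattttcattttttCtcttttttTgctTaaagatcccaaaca

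In Kap1 KO MEFs 5 of the 11 copies carried H3K27ac, those past units 3.2 (score 620.09), 3.6 (627.56), 4.4 (181.68), 4.10 (90.92) and 4.12 (160.34), and all 5 peaks were Kap1 KO only. WT MEFs had 0 H3K27ac peaks over the copies, and H3K9me3 of WT MEFs lay over 0 of them as well. The copies without H3K27ac were those of 3.19, 4.1, 4.14, 4.20, 4.21 and 4.23. In the stretch shown, the copies of 4.12, 4.4 and 4.23 read the same, although the last had no H3K27ac peak. The 5 units with the gained mark had MEF ranks of 303 (unit 4.10), 346 (4.4), 374 (3.6), 392 (4.12) and 393 (3.2), so that all lay below rank 280 in WT cells. How Kap1 KO MEFs express these units was not analysed here.

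A further group was marked by H3K27ac in Kap1 KO cells without KAP1 in Hepa 1.6 cells. Its highest peak (792.84, at 61800 bp before unit 3.6) had 22 copies in mm9, again all on chromosome 12 and 20 of them inside the clusters. Of these 20, 19 lay past the 3′ edge of their nearest unit, by 12649 to 25226 bp. Kap1 KO only H3K27ac peaks were over 6 of the 20, near units 3.5 (score 66.05), 3.6 (792.84 and 334.38), 3.25 (253.13), 4.10 (98.13) and 4.12 (72.94), and WT MEFs had 0. Units 3.6, 4.10 and 4.12 thus had both the gained peak at 9 kb and one at 22 to 25 kb, whereas 3.2 and 4.4 had the copy at 25 kb without a peak. The middle of the copy past unit 3.6 (chr12:18770607-18770690) is shown with those past 4.12 (chr12:23158756-23158839, with a peak) and past 3.2 (chr12:18060015-18060098) and 4.23 (chr12:24872901-24872984, minus strand), without one. Capitals mark differences from the first line.
unit 3.6: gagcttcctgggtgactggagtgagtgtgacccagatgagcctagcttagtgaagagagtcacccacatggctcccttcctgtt
unit 4.12: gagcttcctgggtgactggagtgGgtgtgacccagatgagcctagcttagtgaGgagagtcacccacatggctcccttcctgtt
unit 3.2: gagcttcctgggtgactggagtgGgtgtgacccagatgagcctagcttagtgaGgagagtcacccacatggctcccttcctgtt
unit 4.23: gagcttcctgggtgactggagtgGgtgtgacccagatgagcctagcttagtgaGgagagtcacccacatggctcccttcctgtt

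The copies past 4.12, 3.2 and 4.23 were the same in this stretch, with and without a peak.

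Other groups were defined by KAP1. The sequence under the highest KAP1 peak of the clusters (481, at 25327 bp past unit 4.24) had 29 copies in mm9, 20 of them inside the clusters at 20674 to 50732 bp past the 3′ edge of a unit. KAP1 lay over 10 of these 20, and H3K27ac of either MEF genotype and H3K9me3 of WT MEFs over 0. Between 0.0% and 58.3% of the windows of these 10 copies were unique, so some of the KAP1 peaks cannot be placed on 1 copy. Of the 7 copies on other chromosomes, 6 were under a KAP1 peak and 6 under an H3K9me3 peak of WT MEFs. The sequence under the KAP1 peak at 100821 bp before unit 3.4 (score 246) went beyond the clusters. It had 41 copies, 2 of them in cluster 3 and the others on other chromosomes or contigs. KAP1 was over 40 of the 41 and Kap1 KO only H3K27ac over 18, including both copies of cluster 3 (scores 540.59 and 214.64), and WT MEFs had 0 H3K27ac peaks over them.

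**Figure D5:**
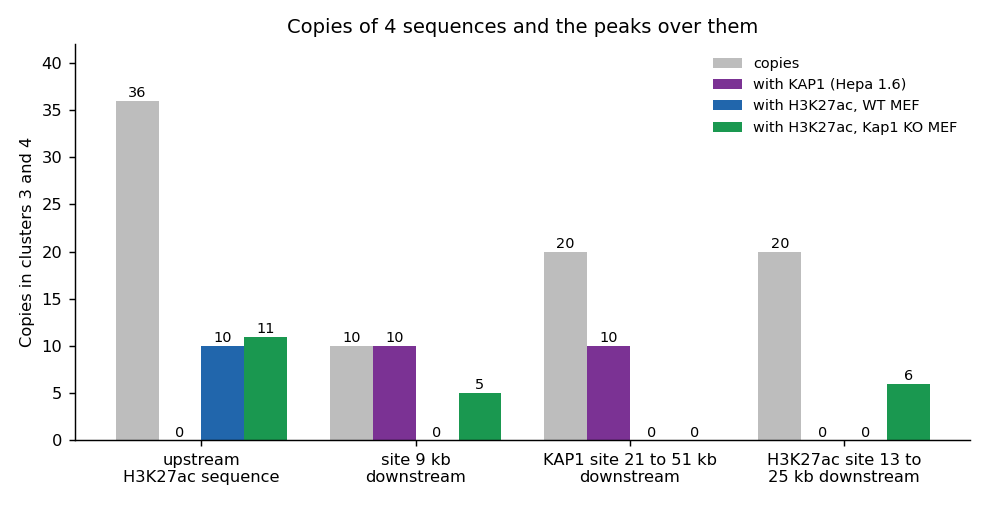
Copies inside clusters 3 and 4 of the sequences under 4 kinds of peak (grey) and the number of them under a KAP1 peak in Hepa 1.6 cells or an H3K27ac peak in WT or Kap1 KO MEFs. KAP1 lay over 10 of 10 copies of the site 9 kb downstream, and H3K27ac of WT MEFs over copies of the upstream sequence alone among the 4. The upstream sequence was taken from an H3K27ac peak of both genotypes, and the others from KAP1 or Kap1 KO only H3K27ac peaks. These patterns thus partly follow from the choice of the sequences.

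Both clusters had runs of units without a peak over or near them. No peak of any list lay within 10 kb of 20 of the 26 units of cluster 3, or 76.9% (56.4% to 91.0%), and of 12 of the 24 of cluster 4, or 50% (29.1% to 70.9%), against 31.6% of all elements. The longest run was in cluster 3, the 12 units from 3.7 to 3.18, with shares of unique windows from 11.3% to 100.0%. In cluster 4 the runs 4.5 to 4.9 and 4.15 to 4.18 had shares of 0.0% to 31.7%.

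Of the 18 protein-coding genes with a transcript start in the clusters, 7 had H3K27ac within 1 kb of a start in WT MEFs, and the same number did in Kap1 KO MEFs. They were 5730507C01Rik, Asap2 and Gm5784 in cluster 3 and 9030624G23Rik, Gm17330, Gm17391 and Gm9312 in cluster 4. The processed transcript 2410018L13Rik had it in Kap1 KO cells alone. None of the 19 pseudogenes of cluster 4 had a called H3K27ac or H3K9me3 peak there. Copies of the upstream sequence lie at some of these starts, with 0.0% to 76.5% of their windows unique in mm9. Where few windows are unique, the lack of a peak need not mean that the mark is absent. Zfp125 was the protein-coding gene with H3K9me3 and KAP1 at a start, which in the annotation lies next to its array. The shares of all protein-coding genes and all pseudogenes with such peaks were not counted, so these counts cannot be called high or low.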

How the data were processed

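ChIP-seq reads had been mapped to mm9 with Bowtie2 2.2.1 and peaks called with MACS 1.4, per the labels and the methods of the study. The 6 peak lists used here hold the score that the authors deposited for each peak, which was not rescaled between libraries. The methods name a cutoff score of 80, at which the Hepa 1.6 lists start, whereas the MEF lists start near 50 and were used whole. All 2957 SETDB1 entries are also KAP1 entries, so both lists are not independent. Reads, input and depth were not analysed here, and neither were the other samples of the series.

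Positions of the 560 elements came from the table of the study. Its expression values served only as ranks and to see which elements are listed at 0. The members and lists were chosen with earlier results of these data known, and the upstream and downstream windows, the homology groups and the copy searches after positions were seen. Overlap meant at least 1 shared base. A peak was inside a cluster by its middle. Shares carry exact Clopper-Pearson 95% intervals. With 1 library per condition no test between conditions was run. The text names the 3 highest peaks of each list and of each kind of H3K27ac change per cluster, every unit under a KAP1, SETDB1 or H3K9me3 peak or in an exon, the 3 units per cluster with the highest MEF rank, identical and most similar units, and genes starting in the clusters; other units were named after their values were seen.

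Coding strand followed the pattern C-X2-5-C-X12-H-X3-5-H in all frames. Copies were found in mm9 with BLAST+ 2.17.0 (at least 80% of the sequence at 90% identity, 85% for the upstream sequence), identities with edlib 1.3.9.post1, and annotation was GENCODE for mm9. The computation used scipy 1.17.1 (intervals), Biopython 1.88, pandas 2.3.3 and matplotlib 3.10.9 in Python 3.11.15, and was tested on simulated data. Alternatives covered score thresholds, list sizes, windows and copy limits.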

Additional observations from a re-analysis of the deposited data

How the results depend on the processing

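No paired analysis was possible because each peak list used is a single library without a replicate number, so no library could be left out of a peak list. The MEF ranks rest on 2 columns, and with the first or the second column alone 2 or 4 units were among the 140 of highest rank, in place of 3. Of 68 alternatives run, 54 left a value within 1.5 times of the reported one and 14 moved it further, and 11 of the 68 were chosen after seeing the data. With the 50% of peaks with the highest scores, units under a SETDB1 entry went from 4 to 1, units under WT H3K9me3 from 4 to 2, Kap1 KO only H3K27ac peaks from 17 to 5 in cluster 3 and from 8 to 2 in cluster 4, WT only peaks in cluster 3 from 0 to 1, and units with upstream WT H3K27ac from 13 to 5. With scores of at least 80, units under WT H3K9me3 were 2, bases under Kap1 KO H3K9me3 in cluster 3 were 0.15%, WT only peaks in cluster 4 were 0, and bases under WT H3K9me3 in cluster 4 were 0.0%, as they also were with the same number of H3K9me3 peaks from both genotypes. Windows of 50 bases gave a median of 18.7% unique in place of 42.3%. An upstream window of 30 kb gave 8 units in place of 13, and copies of at least 50% of the 9 kb site numbered 48 in place of 11. Each of these settings uses fewer peaks, shorter windows or shorter matches. Many reported peaks in these clusters are thus low in their lists, and repeated sequence limits what can be placed.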

Other observations

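The sequence of the KAP1 site 9 kb past the units was also searched with at least 50% of its length, a limit chosen after seeing the data. This gave 48 copies, 36 of them on other chromosomes. KAP1 of Hepa 1.6 cells lay over 21 of the 36, and over 10 of the 10 in clusters 3 and 4. Kap1 KO only H3K27ac was over 7 of the 48.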
